A study of Mus musculus with 16 samples.

Results

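The chromatin of 10 genes that restrain the cell cycle or belong to the p53 pathway was examined in mouse late 2-cell embryos. The genes were Cdkn1a, Cdkn1b, Cdkn2a, Cdkn2b, Cdkn2c, Cdkn2d, Trp53, Mdm2, Btg1 and Btg2, taken by name from the RefSeq gene table of GRCm38, which holds 21887 protein-coding genes on chromosomes 1 to 19, X and Y. All 10 were found there. Embryos were collected 36 h after fertilization. Control embryos had received H2O as zygotes and mutant embryos an mRNA for a mutant form of Hdac1, a histone deacetylase. Strain and mutation are not given in the sources used here, and no removal of the embryos' own Hdac1 is described. H3K27ac and H3K4me3 were profiled by ULI-NChIP-seq, in which native chromatin is cut with micrococcal nuclease and recovered with an antibody. The 16 libraries fell into 8 groups of 2, immunoprecipitated and input chromatin for each mark and injection.

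The authors deposited 1 peak list for each mark and injection, with positions only. A value below is therefore a property of a single list, without replicate error, p-value or known sequencing depth. Peak height was not analysed here, so a gene listed without a peak may still carry some of the mark. A gene was called marked when at least 1 bp of the windows reaching 2 kb to each side of both of its ends lay under a peak. The bases of those windows under peaks are called covered bases. The start sites used in addition came from RefSeq, 13 for the 10 genes.

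Cyclin-dependent kinases drive the cell cycle and are held back by 2 families of small proteins. The Cip/Kip proteins p21 (Cdkn1a) and p27 (Cdkn1b) bind cyclin-kinase complexes, whereas the Ink4 proteins p16 (Cdkn2a), p15 (Cdkn2b), p18 (Cdkn2c) and p19 (Cdkn2d) bind the kinases that partner with D-type cyclins. Cdkn2a also encodes Arf from a separate upstream start, and Arf stabilises p53 by binding Mdm2, the ubiquitin ligase that drives p53 degradation. The transcription factor p53 (Trp53) activates Cdkn1a, Mdm2 and Btg2, among others. Btg1 and Btg2 are antiproliferative proteins that bind the CCR4-NOT deadenylase. Cdkn1a is a known target of Hdac1, and H3K27ac and H3K4me3 are found at active promoters.

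The sequences before 9 of the start sites are shown, namely those that lay under a peak of either mark in 1 condition and not in the other. Each is the 250 bases ahead of a RefSeq start (GRCm38.p6), read 5′ to 3′ on the strand of the gene. Capitals mark GC boxes, the hexamer GGGCGG on either strand, which Sp1-family factors bind, and in 1 case a p53 response element, sought as a pair of adjacent p53 half-sites with at most 1 mismatch.
Cdkn1a, first start (chr17:29090729-29090978, plus strand): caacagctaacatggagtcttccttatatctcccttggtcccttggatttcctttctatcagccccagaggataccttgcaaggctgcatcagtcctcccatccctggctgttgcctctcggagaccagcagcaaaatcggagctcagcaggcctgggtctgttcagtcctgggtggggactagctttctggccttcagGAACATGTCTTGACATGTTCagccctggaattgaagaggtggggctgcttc
Cdkn1a, second start (chr17:29093519-29093768, plus strand): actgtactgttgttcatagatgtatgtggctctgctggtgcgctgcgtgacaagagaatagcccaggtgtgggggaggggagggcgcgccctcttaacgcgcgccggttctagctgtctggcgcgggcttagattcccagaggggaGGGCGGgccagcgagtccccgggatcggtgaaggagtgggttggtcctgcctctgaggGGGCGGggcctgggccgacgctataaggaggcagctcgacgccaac
Cdkn1b (chr6:134920151-134920400, plus strand): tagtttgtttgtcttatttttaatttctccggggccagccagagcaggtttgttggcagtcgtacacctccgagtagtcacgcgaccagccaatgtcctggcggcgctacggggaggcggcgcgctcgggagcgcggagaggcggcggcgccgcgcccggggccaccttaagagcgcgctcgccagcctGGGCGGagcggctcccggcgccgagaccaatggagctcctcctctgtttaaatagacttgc
Cdkn2a, first start, which gives Arf (chr4:89294620-89294869, minus strand): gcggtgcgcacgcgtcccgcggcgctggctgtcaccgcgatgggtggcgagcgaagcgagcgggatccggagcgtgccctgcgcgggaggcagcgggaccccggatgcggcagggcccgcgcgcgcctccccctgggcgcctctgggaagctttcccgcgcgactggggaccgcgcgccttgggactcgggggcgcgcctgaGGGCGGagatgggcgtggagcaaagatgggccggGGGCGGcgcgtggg
Cdkn2a, second start, which gives p16 (chr4:89282193-89282442, minus strand): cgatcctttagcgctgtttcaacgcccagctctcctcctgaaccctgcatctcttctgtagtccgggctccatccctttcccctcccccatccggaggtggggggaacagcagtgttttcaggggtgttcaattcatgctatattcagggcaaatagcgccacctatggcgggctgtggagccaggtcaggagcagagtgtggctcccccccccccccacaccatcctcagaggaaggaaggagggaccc
Cdkn2b (chr4:89311033-89311282, minus strand): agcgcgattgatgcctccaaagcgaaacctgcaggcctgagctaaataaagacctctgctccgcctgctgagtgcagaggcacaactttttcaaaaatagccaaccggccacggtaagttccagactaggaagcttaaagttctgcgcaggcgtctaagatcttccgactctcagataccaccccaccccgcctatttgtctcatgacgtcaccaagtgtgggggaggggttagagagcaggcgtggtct
Cdkn2d (chr9:21291210-21291459, minus strand): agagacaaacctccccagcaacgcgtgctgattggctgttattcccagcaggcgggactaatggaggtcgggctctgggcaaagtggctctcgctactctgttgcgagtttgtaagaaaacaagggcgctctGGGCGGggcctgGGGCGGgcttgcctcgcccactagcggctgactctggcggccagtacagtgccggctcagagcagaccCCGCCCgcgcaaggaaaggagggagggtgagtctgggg
Mdm2 (chr10:117710759-117711008, minus strand): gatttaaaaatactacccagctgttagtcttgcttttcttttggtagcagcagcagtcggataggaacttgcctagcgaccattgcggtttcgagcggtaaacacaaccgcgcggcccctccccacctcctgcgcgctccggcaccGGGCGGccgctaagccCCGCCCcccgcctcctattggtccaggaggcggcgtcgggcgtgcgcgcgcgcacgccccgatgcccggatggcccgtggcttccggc
Btg1 (chr10:96616751-96617000, plus strand): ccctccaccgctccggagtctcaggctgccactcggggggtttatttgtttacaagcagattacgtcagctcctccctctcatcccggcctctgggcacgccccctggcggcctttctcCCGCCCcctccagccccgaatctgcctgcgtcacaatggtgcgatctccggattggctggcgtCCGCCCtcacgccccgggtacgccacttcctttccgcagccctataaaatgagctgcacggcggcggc

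The p53 element in capitals, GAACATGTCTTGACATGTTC, begins 51 bases before the first start of Cdkn1a. The mismatch allowance was chosen after this sequence had been seen. Such an element occurred before 13 of 21263 RefSeq starts of coding genes (0.0611%), and before no other start of the 10 genes. Sequence beyond these 250 bases was not searched, and p53 sites farther from the starts, as in the first intron of Mdm2, are not covered by it. GC boxes occurred before 42.6% of all starts and before 8 of the 13 starts examined here. The second start of Cdkn1a had 2 of them, beginning 104 and 46 bases ahead of it, and its first start had none. CG dinucleotides numbered 2 before the first and 19 before the second start of Cdkn1a, 28 before Cdkn1b, 40 and 7 before the 2 starts of Cdkn2a and 12 before Cdkn2b. They numbered 16 before Cdkn2d, 29 before Mdm2 and 21 before Btg1. The median over all starts was 10 (quartiles 3 and 19).

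In water-injected embryos all 10 genes carried both marks at a gene end. The background for this count was high, since 54.8% of all coding genes were marked by H3K27ac, 74.7% by H3K4me3 and 50.9% by both. The median covered share of the gene-end windows over the 10 genes was 40.7% for H3K27ac, against 5.21% over all coding genes, and 47.8% for H3K4me3, against 37.4%. H3K27ac ranged widely, from 2.64% at Cdkn2b to 100% at Cdkn2d, whereas H3K4me3 ranged from 24.6% at Cdkn2a to 92% at Cdkn2d. Cdkn2b and Btg2 lay below the all-gene median for both marks, and Cdkn2a for H3K4me3.

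In mutant embryos H3K27ac marked 8 of the 10 genes (58.0% of coding genes), H3K4me3 9 (72.9%) and both marks 7 (51.5%). H3K27ac was listed in control and not in mutant embryos at Cdkn1a and Btg2, 2 of the 10 control-marked genes, against 22.7% of all coding genes marked in control. H3K4me3 was absent from the mutant list at Cdkn2b, 1 of 10, against 8.94% of the coding genes marked in control. Both shares are near the background. Since all 10 genes carried both marks in control embryos, none could gain one.

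**Figure D1:**
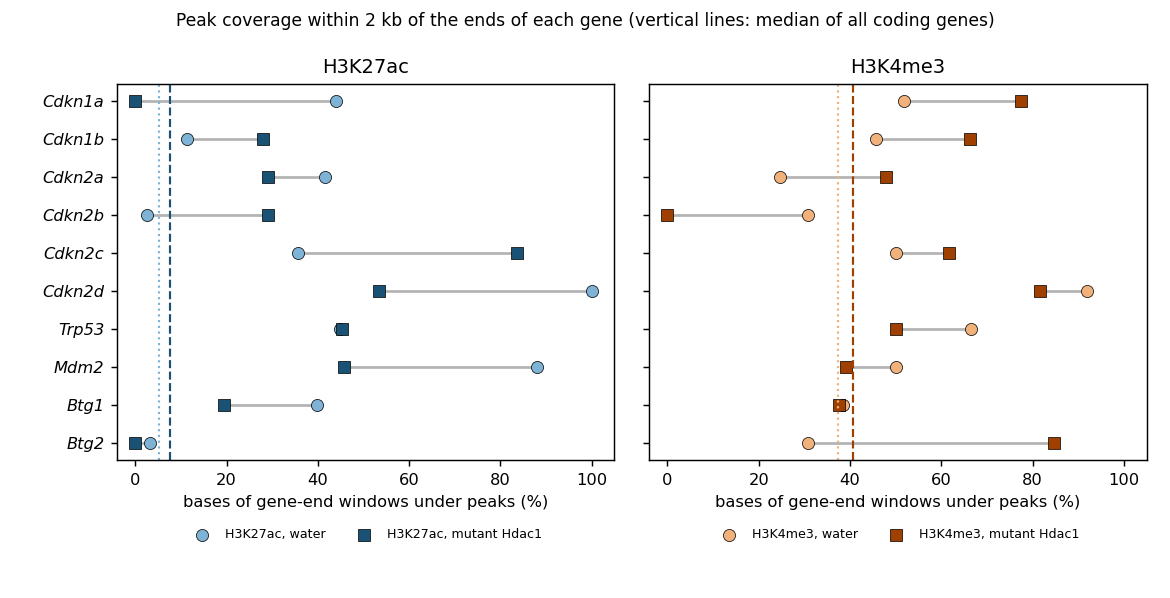
Share of the bases within 2 kb of both gene ends that lay under peaks, for H3K27ac (left) and H3K4me3 (right), with circles for water-injected and squares for mutant embryos, 1 deposited list each; vertical lines give the medians of all coding genes (dotted, control; dashed, mutant). Cdkn1a moves to 0% for H3K27ac while its H3K4me3 share goes from 51.9% to 77.4%, and Cdkn2b moves to 0% for H3K4me3 while its H3K27ac share goes from 2.64% to 29.2%.

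The amount of sequence covered by H3K27ac differed between the conditions in both directions. It was at least 2-fold lower in mutant embryos at Cdkn1a, Btg1 and Btg2, losses included, and at least 2-fold higher at Cdkn1b, Cdkn2b and Cdkn2c. Over all coding genes 22.7% were at least 2-fold lower and 22.0% at least 2-fold higher, or 32.2% and 31.2% of the genes marked in either condition. The latter 2 shares are close to 3 in 10, but they are not a like background, since the 10 genes were all marked in control. Of the 4816 coding genes at least 2-fold higher, 3419 had no control peak. All 4966 at least 2-fold lower were among the 12005 marked in control. Among control-marked genes a 2-fold rise was thus rarer than 31.2%, and a 2-fold fall more frequent than 32.2%. Fewer bases were covered in mutant embryos at 6 of the 10 genes and more at 4, against 52.7% and 45.5% of marked coding genes. These shares also include the 3419 genes without a control peak, which could only rise. Of the 12005 control-marked coding genes, 8121 had fewer bases in mutant embryos. The median difference, mutant minus control, was -7.84 percentage points over the 10 genes and 0 over all coding genes. Only 15424 of the 21887 coding genes were marked in either condition, and the difference is 0 at the rest. The 2 medians therefore come from unlike sets of genes. Of the 8 genes marked in both conditions, 4 had a narrower widest H3K27ac peak after the mutant mRNA, against 67.2% of such coding genes.

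For H3K4me3, covered bases differed at least 2-fold at 2 of the 10 genes. These were Cdkn2b, lower in mutant embryos (10.6% of coding genes, 13.3% of marked ones), and Btg2, higher in mutant embryos (10.5% and 13.2%). More bases were covered in mutant embryos at 5 genes and fewer at 5, against 52.3% and 41.0% of marked coding genes. These background shares include 1061 genes without a control peak, which could only rise, whereas the 10 genes were all marked in control. The widest H3K4me3 peak was narrower in mutant embryos at 5 of 9 genes, against 37.4% of coding genes marked in both conditions. The 5 include Cdkn2d, with 11155 and 11111 bp. They also include Trp53, where the widest peak lay at the 3′ end in control and over the start in mutant embryos. Median coverage in mutant embryos was 55.9%, against 40.7% over all coding genes. The median difference, mutant minus control, was 5.53 percentage points over the 10 genes and 0 over all coding genes, unmarked ones included.

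The start sites themselves were examined next. In control embryos an H3K4me3 peak lay over all 13 starts, compared with 66.1% of the 21263 RefSeq starts of coding genes, and an H3K27ac peak over 7, compared with 35.2%. In mutant embryos H3K4me3 covered 10 of 13 starts (62.5% of all) and H3K27ac 5 (28.0%). H3K27ac left 5 of the 7 starts it covered, both of Cdkn1a, the first of Cdkn2a and those of Cdkn2d and Btg1, and was over 3 of the 6 others in mutant embryos alone, the second of Cdkn2a and those of Cdkn1b and Cdkn2b. Over all coding genes, H3K27ac left 50.3% of the starts it covered in control embryos and appeared at 16.1% of those it did not. Only the 2 starts of Cdkn2c kept H3K27ac in both lists. H3K4me3 left 3 of its 13 starts, the second of Cdkn2a and those of Cdkn2b and Mdm2, against 12.1% of all starts it covered in control embryos. Both marks lay over 7 of the 13 starts after H2O (33.3% of all starts) and over 3 of 13 after the mutant mRNA (24.2%).

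**Figure D2:**
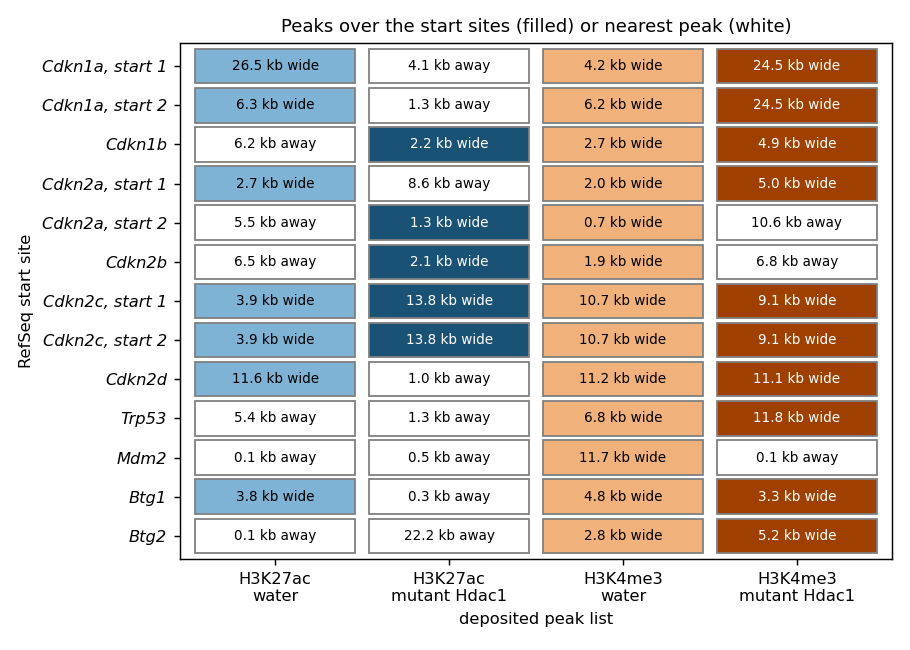
Each row is a RefSeq start site of the 10 genes and each column a deposited peak list; a filled cell gives the width in kb of the peak lying over the start, and a white cell the distance in kb from the start to the nearest peak. H3K4me3 in water-injected embryos fills all 13 cells, and H3K27ac in mutant embryos fills 5.

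Cdkn1a (chromosome 17, 29090979 to 29100722, plus strand) had H3K27ac and H3K4me3 side by side in control embryos and H3K4me3 alone at its ends in mutant embryos. In control embryos a 26508-bp H3K27ac peak (29065463 to 29091970) began 25516 bp upstream and ran across the first start, and a 6273-bp peak (29092730 to 29099002) covered the second start, which lies 2790 bp downstream. These peaks covered 3523 bases (44%) of the gene-end windows. In mutant embryos 0 bases of the windows were covered, and the only H3K27ac peak within the gene measured 234 bp (29095041 to 29095274), 1272 bp beyond the second start. Over the gene and 2 kb on either side, H3K27ac lay over 9265 bases in control and 234 in mutant embryos. The upstream sequence stayed marked in mutant embryos, with peaks of 15383 and 11304 bp whose nearest edge lay 8008 bp from the first start, and a further peak of 838 bp between them and the gene. Because of the 234-bp peak, Cdkn1a counted as marked in mutant embryos when windows reached 5 kb, with 234 covered bases against 12265 in control, or when windows were centred on the starts, with 234 against 6032.

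H3K4me3 was retained at Cdkn1a. In control embryos peaks of 4213 and 6218 bp lay over the first and second start, with a gap between them, and in mutant embryos a single peak of 24545 bp (29076370 to 29100914) spanned both starts and the whole gene. H3K4me3 covered 4155 bases in control embryos and 6194 in mutant ones, a 1.49-fold difference, and all 4155 control bases were also covered in mutant embryos. H3K27ac overlapped 78.8% of the H3K4me3 bases at the gene ends in control and 0% in mutant embryos. The p53 element printed above (29090928 to 29090947) lay under H3K27ac in control only and under H3K4me3 in both conditions. Of all 13 such elements before coding starts, 5 lay under H3K27ac in control and 3 in mutant embryos, and 5 and 7 under H3K4me3.

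The coding genes whose coverage over the 4 lists came closest to that of Cdkn1a were Pum2, Ndufaf7 and Iffo2, by the sum of the absolute differences in covered share. The sums were 6.89, 7.89 and 8.25 percentage points. Their H3K27ac coverage was 50%, 47.5% and 37.3% in control and 0%, 0% and 0.775% in mutant embryos. With 4 lists this likeness is a description only.

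Cdkn1b (chromosome 6, 134920401 to 134925525, plus strand), also a Cip/Kip gene, differed in the opposite sense to Cdkn1a for H3K27ac. In control embryos the nearest H3K27ac peak, of 2217 bp, lay beyond the 3′ end, 6219 bp from the start, and covered 906 bases of the windows. In mutant embryos a 2171-bp peak lay over the start and a 6428-bp peak ended 1928 bp ahead of it, and together they covered 2244 bases, 2.48 times as many. The control and mutant peaks shared 0 bases of the windows. With windows of 1 kb, or with the start alone, control H3K27ac was listed at 0 bases. Over the start lay an H3K4me3 peak of 2681 bp in control and of 4876 bp in mutant embryos. The H3K4me3 bases at the gene ends numbered 3645 and 5316. H3K27ac overlapped 24.9% of the H3K4me3 bases in control and 40.8% in mutant embryos.

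**Figure D3:**
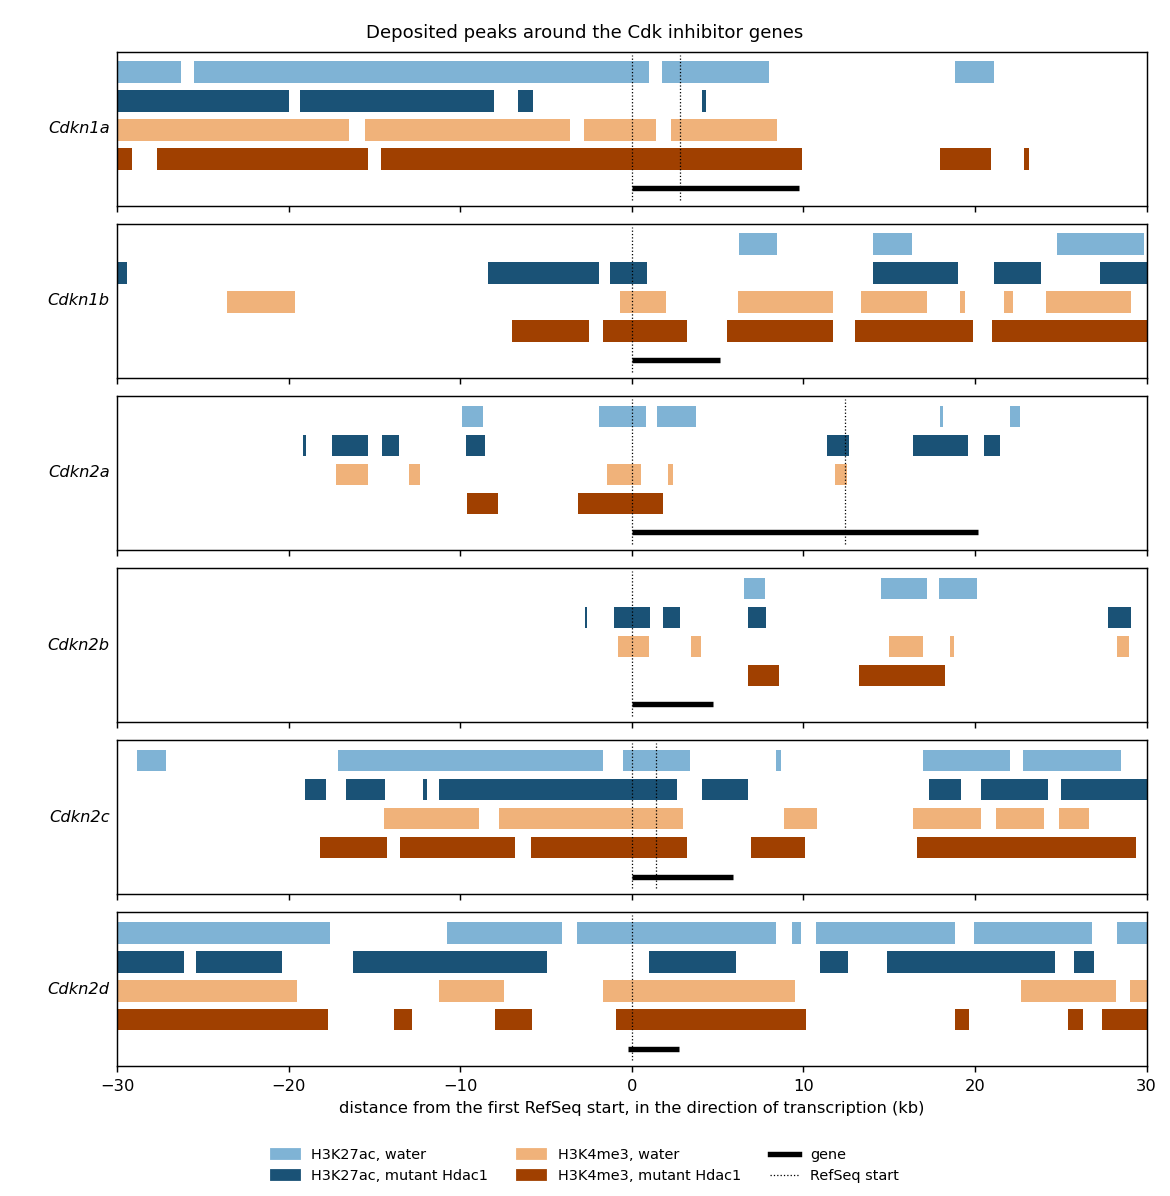
Deposited peaks within 30 kb of the first RefSeq start of the 6 Cdk inhibitor genes, drawn in the direction of transcription, with 1 row of bars per list, the gene as a black line and RefSeq starts as dotted lines. At Cdkn1a H3K27ac ends 8008 bp or more upstream of the first start in mutant embryos, apart from peaks of 838 and 234 bp, and at Cdkn1b and Cdkn2b it lies over the start in mutant embryos only.

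Cdkn2a and Cdkn2b are neighbours on chromosome 4 (89274473 to 89294619 and 89306289 to 89311032, both on the minus strand), and a long noncoding RNA gene on the other strand, Gm12610, begins 560 bp from the Arf end of Cdkn2a and runs across Cdkn2b. Peaks there cannot be assigned to 1 of these genes. At the first start of Cdkn2a, that of Arf, control H3K27ac (2702 bp) and H3K4me3 (1971 bp) overlapped. In mutant embryos the H3K4me3 peak there measured 4992 bp, and the nearest H3K27ac peak lay 8577 bp away. The start of Gm12610 showed the same pattern, under H3K27ac in control only and under H3K4me3 in both conditions. At the second start of Cdkn2a, that of p16, the marks exchanged places, with a 665-bp H3K4me3 peak and no H3K27ac in control embryos, and a 1313-bp H3K27ac peak and no H3K4me3 within 10592 bp in mutant embryos.

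Counted over both ends of Cdkn2a, H3K27ac lay over 3328 bases in control and 2339 in mutant embryos, with 0 bases in common. On the starts alone the values were 3208 and 1313, a difference past 2-fold. The mutant peaks of 917 and 3178 bp both lay at the 3′ end of the gene. The share of H3K4me3 bases also under H3K27ac was accordingly 100% in control and 0% in mutant embryos, although the gene counted as carrying both marks in both conditions.

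At Cdkn2b the start showed the same exchange as that of p16. A 1853-bp H3K4me3 peak lay over it in control embryos and a 2085-bp H3K27ac peak in mutant embryos. H3K27ac covered 211 bases of the windows in control, all at the 3′ end, and 2336 in mutant embryos, an 11.1-fold difference. The size of this difference depends on the window, since windows of 5 kb held 1214 and 4306 bases, and windows of 1 kb or on the start alone held no control H3K27ac. H3K4me3 lay over 2461 bases in control and 0 in mutant embryos. The nearest mutant H3K4me3 peak lay 2038 bp beyond the 3′ end, just outside the windows, and windows of 5 kb reached 1809 bases of it, so that the gene then counted as marked. Over 30 kb on each side of the start both marks were sparse at this locus, with 6.15 and 5.62 kb of H3K27ac and 5.36 and 6.8 kb of H3K4me3 in control and mutant embryos.

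Cdkn2c (chromosome 4, 109660876 to 109666756, minus strand) was marked by both modifications at its starts in both conditions. H3K27ac covered 2852 bases of the windows in control and 6690 in mutant embryos, 2.35 times as many, and all control bases were also covered in mutant embryos. In control embryos a 3867-bp peak over the starts was separated from a 15466-bp peak that ended 1650 bp upstream. In mutant embryos 1 peak of 13837 bp ran across that gap and a second, of 2689 bp, lay at the 3′ end. Windows on the starts alone gave 4218 and 4610 bases and windows of 5 kb 7500 and 10299, both short of 2-fold. H3K4me3 covered 4001 and 4948 bases.

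Cdkn2d (chromosome 9, 21288459 to 21291421, minus strand) had the densest coverage of the 10 genes in control embryos. A single 11601-bp H3K27ac peak covered its windows completely, and an 11155-bp H3K4me3 peak covered 92%. In mutant embryos the H3K27ac peak measured 5043 bp and began 1029 bp downstream of the start, leaving 53.5% of the windows covered. The peaks lay over 6963 bases after H2O and 3722 after the mutant mRNA, less than a 2-fold difference, but the difference reached 2-fold with windows of 1 kb (4002 and 2001), of 5 kb (12132 and 5319) and on the start alone (4001 and 972). The mutant H3K4me3 peak measured 11111 bp and covered 81.6%. The start of Kri1, a coding gene 489 bp beyond the 3′ end, lay under both marks in both conditions, and the windows of Cdkn2d take in that start.

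Trp53 (chromosome 11, 69580348 to 69591873, plus strand), which encodes p53, had nearly equal H3K27ac coverage, with 3596 bases in control and 3616 in mutant embryos. Its start lay under no H3K27ac peak in either list. The closest peak ended 5366 bp upstream in control and 1270 bp upstream in mutant embryos, and the covered bases lay at the 3′ end in control and at both ends in mutant embryos. H3K4me3 covered the start in both, in a peak of 6786 bp after H2O and of 11808 bp after the mutant mRNA. A second control H3K4me3 peak, of 14524 bp, lay at the 3′ end, where the mutant list had none, and H3K4me3 covered 5330 and 4001 bases in all. Wrap53 begins 97 bp from Trp53 and is transcribed away from it, and the H3K4me3 peaks also lie over its start. Windows on the start of Trp53 alone held 0 and 731 bases of H3K27ac.

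Mdm2 (chromosome 10, 117688875 to 117710758, minus strand), both a target and the main negative regulator of p53, lay in a region rich in H3K27ac in control embryos. H3K27ac covered 22680 bases of the gene and its 2-kb flanks in control (87.6%) and 13615 in mutant embryos (52.6%). At the gene ends the values were 7050 and 3666 bases, a 1.92-fold difference, just short of 2-fold, and with windows of 1 kb they were 3050 and 1072. Windows on the start alone gave 3049 and 3072 bases, so the difference in the windows lay at the 3′ end, 1522 bp from the coding gene Cpm. The start lay in a gap between H3K27ac peaks in both lists, 81 bp from the nearest in control and 454 bp in mutant embryos. A control H3K4me3 peak of 11676 bp spanned the start. In mutant embryos peaks of 4927 and 1845 bp left a gap there whose nearer edge was 83 bp from the start, so this loss turns on a short distance. Over the gene and flanks H3K4me3 covered 13179 and 7697 bases.

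**Figure D4:**
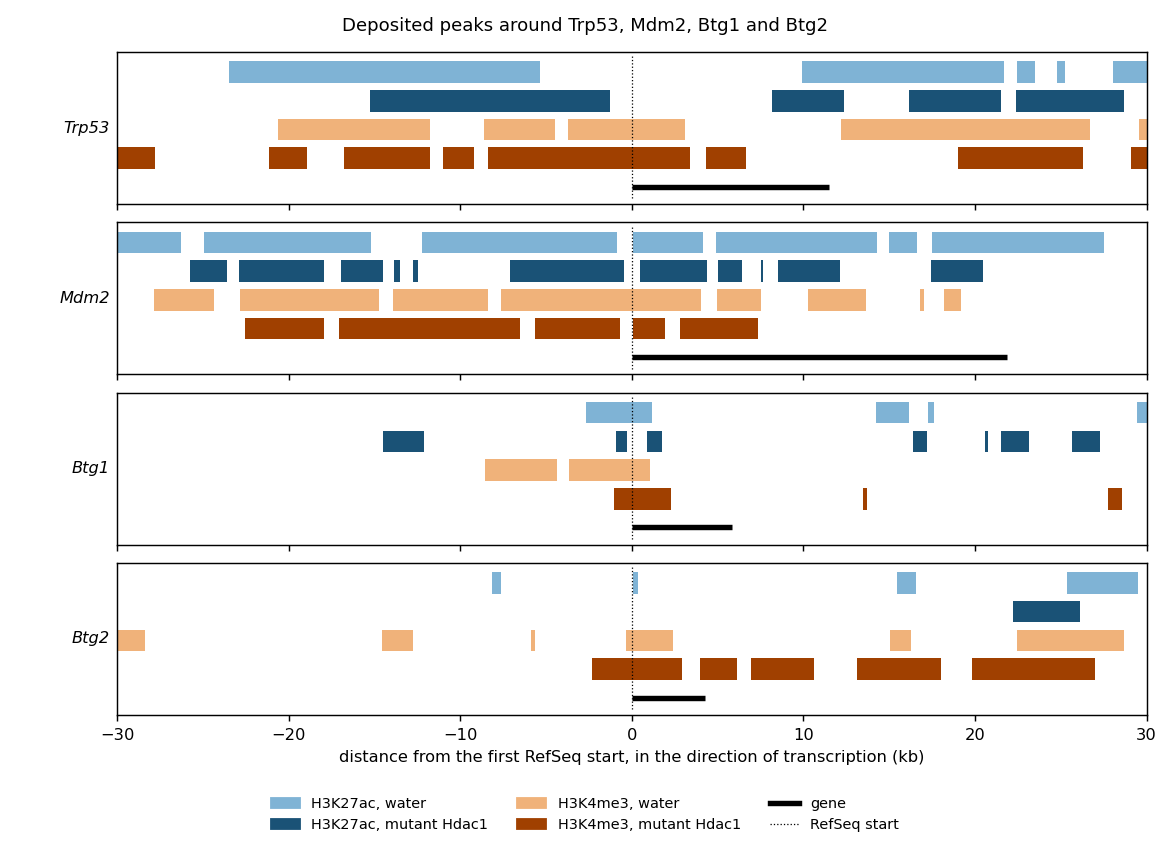
Deposited peaks within 30 kb of the first RefSeq start of Trp53, Mdm2, Btg1 and Btg2, drawn as in the map of the inhibitor genes. H3K27ac at Mdm2 covers 50 kb of this span in control and 29 kb in mutant embryos, and H3K4me3 at Btg2 covers 13.9 and 23.2 kb.

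The BTG genes both had less H3K27ac at their ends in mutant embryos. At Btg1 (chromosome 10, 96617001 to 96622813, plus strand) a 3837-bp control peak lay over the start, and in mutant embryos peaks of 644 and 906 bp flanked it at distances of 269 and 881 bp. Covered bases were 3182 and 1550, a 2.05-fold difference. H3K4me3 covered 3082 and 3020 bases, and its peak over the start measured 4768 and 3290 bp. At Btg2 (chromosome 1, 134074865 to 134079155, minus strand) control H3K27ac consisted of 1 peak of 266 bp, 96 bp downstream of the start, and no mutant peak lay within 17915 bp of the gene. This loss rests on a peak so narrow that it did not enter when peaks under 500 bp were dropped. H3K4me3 at Btg2 lay over 2473 bases in control and 6775 in mutant embryos, 2.74 times as many, and the peak over the start measured 2762 and 5220 bp. Windows on the start alone gave 2334 and 4001 bases, short of 2-fold.

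Btg2 and Cdkn1a thus had the same combination in mutant embryos, H3K4me3 without H3K27ac at the gene ends, and Cdkn2b was the reverse, with H3K27ac alone. Summed over the 10 genes, the bases of gene-end windows under both marks came to 23137 after H2O and 14928 after the mutant mRNA, which is 61.7% and 34.8% of the H3K4me3 bases there. Over all coding genes these shares were 52.5% and 39.6%. The shared bases were higher in mutant embryos at Cdkn1b, with 906 and 2171, and at Cdkn2c, with 2852 and 4001, and lower at 7 of the 9 genes with any, against 57.8% of such coding genes. They were 0 in both conditions at Cdkn2b.

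The wider pathway was described with 6 lists of 62 genes in all, set beside the coding-gene shares above. H3K27ac marked 43 of the 62 in each condition, against 54.8% of coding genes in control and 58.0% in mutant embryos. It was lost at 9 of the 43 marked in control and gained at 9 of the other 19, against 22.7% and 34.6% of coding genes. Covered bases were at least 2-fold lower at 18 of the 62 and higher at 11, beside 22.7% and 22.0% of all coding genes, or 32.2% and 31.2% of marked ones. H3K4me3 marked 59 in control and 60 in mutant embryos (74.7% and 72.9% of coding genes), with 1 loss among 59 genes and 2 gains among 3, against 8.94% and 19.2%, and was at least 2-fold lower at 6 and higher at 7, beside 10.6% and 10.5%.

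Among 24 p53 target genes, H3K27ac marked 19 after H2O and 15 after the mutant mRNA, against 54.8% and 58.0% of coding genes. It was lost at Eda2r, Xpc, Fas, Phlda3 and Aen, 5 of the 19 marked in control, against 22.7%, a share near the background, and gained at Pmaip1, 1 of the other 5, against 34.6%. The widest control peak measured only 484 bp at Eda2r, 547 at Xpc, 332 at Fas and 202 at Phlda3. Coverage was at least 2-fold lower at 8 of the 24 and higher at 3, beside 22.7% and 22.0% of coding genes. The median covered share was 31.1% in control and 21.9% in mutant embryos. The largest differences in H3K27ac were at Bax, an apoptosis effector, with 6816 and 1890 bases, at Ei24 with 8002 and 3319, and at Aen, a nuclease, with 4001 and 0. H3K4me3 differed among these 3 genes, with 4001 bases in both conditions at Aen, but 8002 and 3232 at Bax and 8002 and 3692 at Ei24, where it too was more than 2-fold lower. Perp, a membrane protein of desmosomes, was the only target that lost H3K4me3, with 4215 bases in control and 0 in mutant embryos. This is 1 of the 22 marked in control, against 8.94% of coding genes. The death receptor Fas gained H3K4me3, with 0 and 2751 bases, 1 of the other 2, against 19.2%. H3K4me3 coverage was at least 2-fold lower at 3 of the 24 and higher at 2, beside 10.6% and 10.5% of coding genes.

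Of 15 p53 regulators, 12 carried H3K27ac in control and 13 in mutant embryos, beside 54.8% and 58.0% of coding genes. It was lost at 1 of the 12 and gained at 2 of the other 3, against 22.7% and 34.6%. Coverage was at least 2-fold lower at 4 of the 15 and higher at 2, beside 22.7% and 22.0% of coding genes. The lower share is near this background. The largest differences were at the DNA-damage kinases Atm, with 4001 and 0 bases, and Chek2, with 7246 and 1841, and at Rpl11, a ribosomal protein that binds Mdm2, with 7004 and 605. H3K4me3 covered 4001 bases in both conditions at Atm, 6742 and 4934 at Chek2, and 5590 and 8002 at Rpl11. Trp53bp1, a DNA-repair protein that binds p53, had neither mark in control embryos, and 3296 bases of H3K27ac and 2416 of H3K4me3 in mutant embryos. The related factors Trp63 and Trp73 had no H3K27ac in either condition, and 1490 and 296 bases of H3K4me3 at Trp63 and 3072 and 3241 at Trp73.

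Among 6 other Cdk inhibitor and BTG/TOB genes, H3K27ac was listed in control and not in mutant embryos at Btg3, with 3929 and 0 bases, and Tob1, with 3566 and 0, which is 2 of the 5 genes marked in control, against 22.7% of coding genes. Their relatives Btg4, with 3563 and 3024 bases, and Tob2, with 5308 and 4001, carried it in both conditions. H3K4me3 marked all 6 genes in both conditions, beside 74.7% and 72.9% of coding genes. It was at least 2-fold lower at 1 of the 6, Btg4, with 5543 and 2433 bases, and higher at 1, Tob1, with 2071 and 5533. The coding-gene shares were 10.6% and 10.5%.

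Of 11 genes of the Cdk and Rb pathway, H3K27ac marked 5 in control and 9 in mutant embryos, beside 54.8% and 58.0% of coding genes. It was gained at Cdk6, Rb1, Rbl2, E2f2 and E2f3, 5 of the 6 genes not marked in control, against 34.6% of coding genes, and lost at Cdk4, 1 of 5, against 22.7%. The gains at E2f3, a single peak of 353 bp, and at Cdk6, with 499 covered bases, were slight. Coverage was at least 2-fold lower at 3 of the 11 and higher at 5, beside 22.7% and 22.0% of coding genes. Whether this list differs from the others was not tested. E2f2, a transcription factor bound by Rb, had 0 and 4001 bases, the kinase Cdk4, which the Ink4 proteins inhibit, 5688 and 0, and Rbl1 7318 and 3515. H3K4me3 marked all 11 in both conditions, beside 74.7% and 72.9% of coding genes. Among 4 deadenylase genes of the CCR4-NOT complex, Cnot6 had 0 and 4095 bases of H3K27ac, Cnot7 4001 and 1925, and Cnot8 6769 and 7527.

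**Figure D5:**
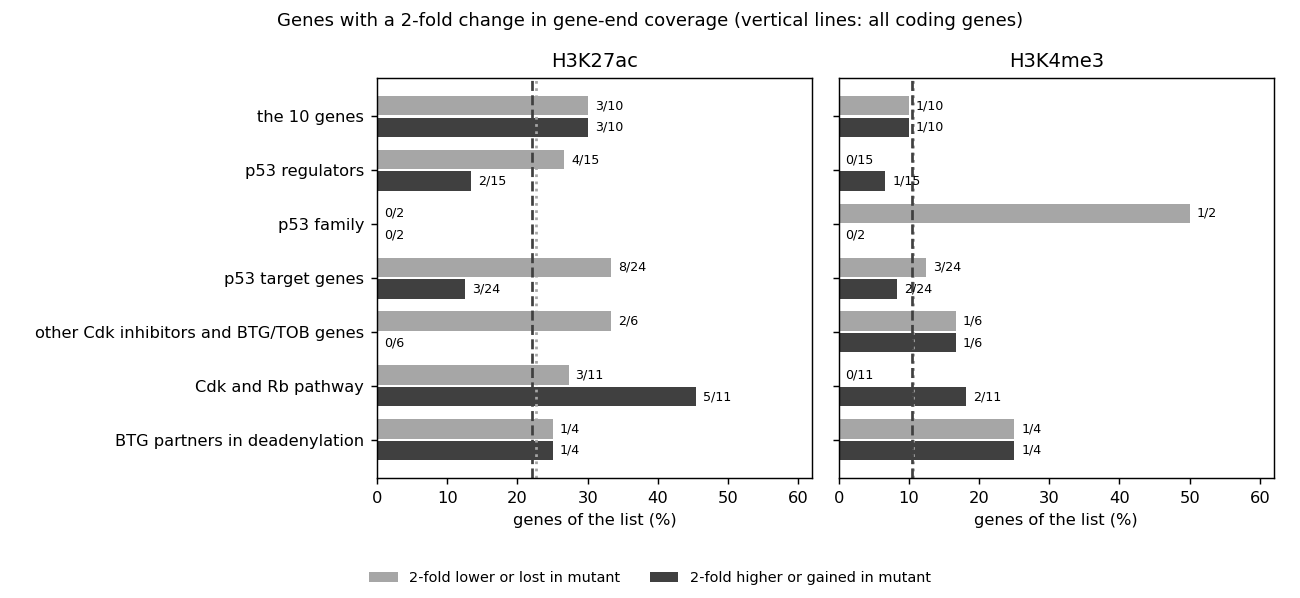
Share of the genes of each list, with the count beside each bar, whose covered bases at gene ends were at least 2-fold lower (grey, losses included) or higher (black, gains included) in mutant embryos; vertical lines give the same shares of all coding genes. For H3K27ac the p53 target genes stand at 8 of 24 lower and 3 of 24 higher, and the Cdk and Rb pathway at 3 of 11 lower and 5 of 11 higher.

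As a check of the material, 6 of 6 genes typical of the 2-cell embryo carried H3K27ac in both conditions, and 5 and 6 carried H3K4me3 in control and mutant embryos. Of 10 markers of cumulus and granulosa cells, which surround the oocyte, 3 and 5 carried H3K27ac (54.8% and 58.0% of coding genes) and 7 and 9 H3K4me3 (74.7% and 72.9%), the control H3K4me3 count being near the background. The median H3K27ac share was 78.3% and 56.3% for the former and 0% and 1.37% for the latter, against 5.21% and 7.51% over all coding genes. The cumulus and granulosa markers were uneven. Star had 6905 and 7344 bases of H3K27ac and Amh 3197 and 2998, whereas 7 of the 10 had none in control. For H3K4me3 the median share was 75.1% and 48.8% for the 2-cell genes and 33.9% and 18.5% for the cumulus and granulosa markers, against 37.4% and 40.7%. The part of such cells in the differences was not tested. The complete control and mutant lists held 77349 and 122487 H3K27ac peaks and 86798 and 85780 H3K4me3 peaks, so the mutant H3K27ac list held the most peaks of the 4. It covered the fewest bases, 246 Mb, against 252 Mb in the control H3K27ac list and 257 and 279 Mb in the H3K4me3 lists.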

How the data were processed

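The deposited files are 4 peak lists, 1 for each immunoprecipitation group of 2 libraries, with chromosome, start and end of each peak. Per the submitters' processing notes, CASAVA, Trimmomatic, Bowtie2, SAMtools, Picard, MACS2 and deepTools were used with the build mm10/GRCm38. Versions, thresholds and whether libraries were pooled are not given in the sources used here. The lists carry no score or read number, so depth is unknown and no test was made. Positions, 0-based in the lists, are printed 1-based.

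Coverage was computed with Python 3.11.15 and pandas 2.3.3, checked against a base-by-base count on simulated peaks. Genes came from the RefSeq table of GRCm38.p6, and starts from its promoter table, which holds 17492 of the 21887 coding genes and all 10 examined here. Named pathway genes were those that lost or gained H3K4me3 and the 3 per list with the largest H3K27ac difference in bases; other genes are named as lost or gained, and Btg4 was named after its values were seen. The gene set and all lists were chosen with earlier results of these data known.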

Additional observations from a re-analysis of the deposited data

How the results depend on the processing

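No paired analysis was possible because the 2 libraries of a group share 1 list, and no replicate could be left out in turn for that reason. The 18 counts over the 10 genes and their starts were recomputed under up to 9 alternatives, giving 146 values, of which 135 stayed within 1.5 times the reported count and 11 did not. Genes that lost H3K27ac numbered 2 as reported and 1 with windows of 5 kb, with windows on the starts alone or without peaks under 500 bp. When only the wider 50% of each list was kept, the number stayed at 2 but the genes changed. Btg1 then had 3182 and 0 bases, and Btg2 had 0 in both conditions. Genes that gained H3K27ac numbered 0 as reported, where all 10 were marked in control, 2 with windows of 1 kb and 3 on the starts alone. Genes with H3K27ac at least 2-fold lower numbered 3 as reported, and 5 with windows of 1 kb and on the starts alone. The H3K4me3 loss at Cdkn2b ended with windows of 5 kb (0 lost, 0 at least 2-fold lower), and genes with H3K4me3 at least 2-fold higher numbered 2 with windows of 5 kb and 0 on the starts alone, against 1. These alternatives count other bases by construction. For single genes, 166 of 180 recomputed differences kept their call at 2-fold, 14 did not, and 0 of those called changed sign. The other alternatives were common limits (peaks less than 750 bp apart merged, those under 200 bp dropped), merging within 1 kb, the wider 50% of each list, lists of equal length and at least 200 covered bases. With no depth or peak height, a missing peak cannot be told from a weak one.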
